A study of Mus musculus with 9 samples.

Results

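The genes described here encode the subunits of the mitochondrial respiratory chain and ATP synthase that are carried in the nucleus, with the complex I assembly factors that share their names. They were chosen by name alone: every array probe that is not a control and whose gene name begins with Nduf, Uqcr or Atp5, is Sdha, Sdhb, Sdhc or Sdhd, or is a cytochrome c oxidase name from Cox4 to Cox8 followed by a letter. Ndufa4l2 and names marked as pseudogenes were left out. This took 140 of 56605 probes, naming 90 genes, of which 87 had a probe well above background on every array of at least 1 group. Complex I had 44 measured genes, complex II 4, complex III 8, complex IV 14 of 17 named, and complex V 17. Cox5b had no probe under that name. Atp5s and Atp5sl carry ATP synthase names in the files, but RefSeq calls them Dmac2l and Dmac2 and they are not counted among its subunits. Without them and the 7 assembly factors, 78 subunit genes were measured.

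Complex I takes electrons from NADH and complex II takes them from succinate, and both pass them to ubiquinone. Complex III hands them on to cytochrome c, complex IV gives them to oxygen, and complex V makes ATP from the proton gradient that complexes I, III and IV build. Several complex IV subunits exist in tissue-specific forms, such as the heart-and-muscle forms Cox6a2 and Cox7a1 and the broadly expressed forms Cox6a1 and Cox7a2. Hepatic stellate cells store vitamin A in the healthy liver and turn into collagen-producing, contractile cells when the liver is injured or when they are kept on plastic.

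The arrays measured primary mouse hepatic stellate cells from C57BL/6 animals aged 10 weeks, with 3 arrays in each of 3 groups. The qhsc group held quiescent cells with no treatment, and the time of their harvest was not given. The nc group held cells that had activated during 7 days on hard plates and were then transfected overnight with a negative control siRNA at 5 nM. The si-cav group held cells activated in the same way and transfected with an siRNA against Cav1, which encodes the membrane protein caveolin-1. All cells came from livers dispersed with collagenase, and the activated groups share the days on plates and the transfection reagent, while the quiescent group has no treatment by its labels. Separate animals or cultures are not stated for the arrays within a group, so p-values measure the spread between these arrays, which may be technical. Values are log2 signals relative to the 75th percentile of each array, and changes are differences of these log2 values.

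Cav1 read -4.87, -5.65 and -5.84 when quiescent, -1.34, -1.12 and -1.09 with control siRNA, and -2.87, -2.89 and -3.07 with its own siRNA. It was thus lower on every array with its siRNA than on every control-siRNA array, with a change of -1.76 ± 0.24 (SE, log2, n = 3 and 3) and an adjusted p of 0.145 from limma. Between 53.6% (quiescent array 2) and 70.3% (a control-siRNA array) of spots were well above background. The groups also differed in markers of other liver cells: all 10 hepatocyte markers fell from quiescent to control-siRNA arrays, their summed linear signal going from 1302 to 1640 down to 0.177 to 0.196, and 6 of the 10 were not well above background on any control-siRNA array. Kupffer cell markers summed to 280 to 489 against 9.69 to 11.3, sinusoidal endothelial markers to 327 to 551 against 0.834 to 0.874, and erythroid markers to 226 to 347 against 0.0587 to 0.0615. All 8 measured markers of quiescent stellate cells were above background on the quiescent arrays, and 6 were so on every control-siRNA array. Of the 8, 5 fell in culture, among them Lrat, the enzyme that makes retinyl esters (at least 104-fold lower), and Pdgfrb, which is also an activation marker, rose. Their summed signal was 27.5 to 75.4 on quiescent and 48.9 to 51.0 on control-siRNA arrays. All 8 activated stellate markers rose in culture. Hepatocytes are rich in mitochondria, and the part of these other cells in the changes below was not tested. In such bulk samples, fewer cells of a type and less RNA per cell cannot be told apart.

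With activation in culture, 41 of the 87 genes fell and 6 rose (limma, Benjamini-Hochberg adjusted p under 0.05 over 23965 genes). Among all genes tested the fall was called in 26.0% and the rise in 42.1%, against 47.1% and 6.90% of the respiratory chain genes. Their median change was -0.44, while that of all genes was 0.32, and 69 of the 87 lay below 0 against 39.9% of all genes. Of the 78 subunits, 36 fell and 3 rose. A fall of at least 2-fold was called in 13 genes (14.9%, against 19.0% of all genes) and a rise of that size in 1 (1.15%, against 28.9%). Most of the falls were therefore shallow. The control-siRNA arrays lay wholly below the quiescent arrays in 43 genes (49.4%, against 27.0% of all genes) and wholly above them in 6 (6.90%, against 42.8%).

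**Figure D1:**
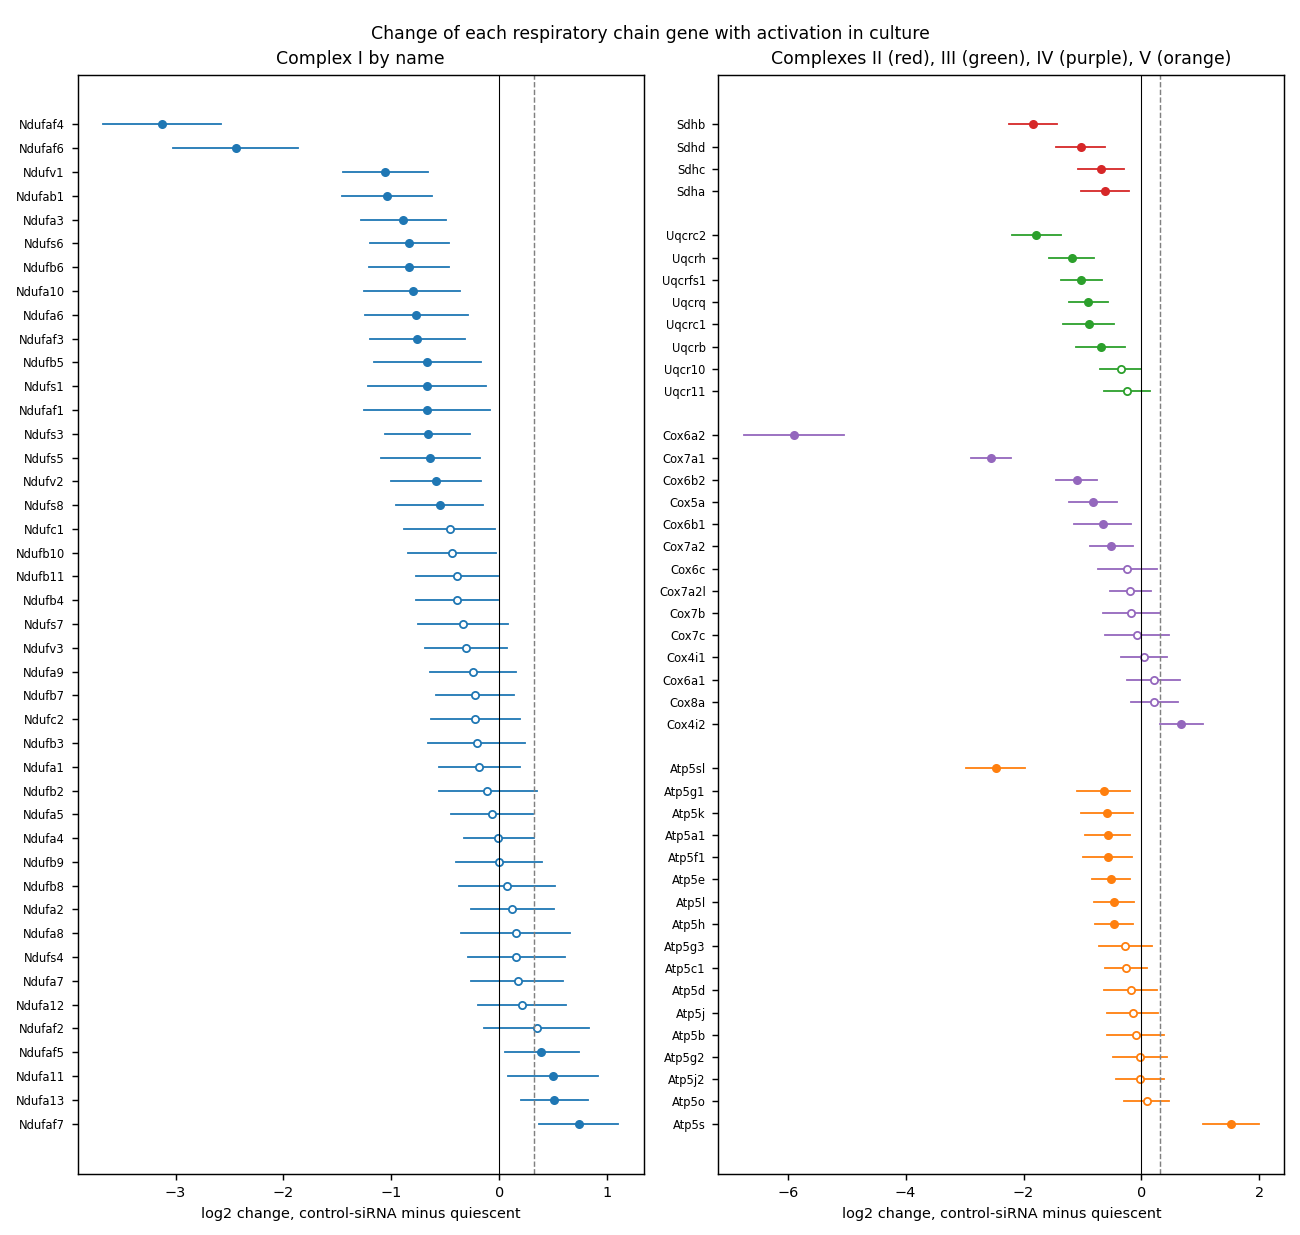
Log2 change of 86 measured genes from quiescent to control-siRNA arrays (x axis, log2 units), complex I on the left and complexes II to V on the right. Points are fitted changes, filled where the adjusted p was under 0.05, bars are 95% confidence intervals, and the dashed line is the median of all genes at 0.32. The x scales of the panels differ, and 68 of the 86 points lie below 0.

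These counts, and those of all genes beside them, depend on how the arrays are scaled, on the slide and on the background filter. The quiescent arrays and control-siRNA array 1 lay on slide 1, and the other arrays on slide 2. With slide as a term, 22 genes fell and 3 rose, against 20.6% and 31.8% of all genes, and with the arrays of slide 1 alone, where 1 control-siRNA array stands for its group, 7 fell and none rose, against 14.7% and 17.0% of all genes. The median change was -0.50 in both. Median scaling gave 19 falls and 4 rises, against 21.8% and 43.9% of all genes, so the count of falls was then at the level of the array as a whole. Quantile normalization gave 58 and 4, against 26.3% and 41.6%. Among all genes, higher calls made up 61.8% of calls here and 46.2% after normexp background correction, which moved the median of all genes to -0.12. The median of the respiratory chain genes was then -0.42, with 44 falls and 6 rises, against 38.1% and 32.8% of all genes. Without the background filter, 41 of 90 genes fell and 5 rose, against 29.4% and 26.1% of all genes. The medians were then -0.45 and, for all genes, -0.21. With the filter on all 9 arrays, 45 fell and 6 rose, against 28.2% and 41.5%, with medians of -0.44 and 0.21.

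In complex II all 4 genes fell by their brightest probe (against 26.0% of all genes), with a median change of -0.86. Sdhb, the iron-sulfur subunit, read 6.08, 5.43 and 5.94 when quiescent, 3.90, 4.01 and 4.01 with control siRNA, and 4.18, 4.09 and 4.11 with Cav1 siRNA. Every quiescent array stood above every cultured array. The fall was -1.84 ± 0.18 (SE), or 3.58-fold, with an adjusted p of 1.6e-05, and within slide 1 it was -1.91. Its second kept probe gave -2.47. Sdhd, a membrane anchor that binds ubiquinone, read 5.54, 5.26 and 5.97 when quiescent and 4.62, 4.52 and 4.54 with control siRNA, a fall of -1.03 ± 0.18 (adjusted p 8.7e-04). Sdhc, the other anchor, changed by -0.68 (adjusted p 0.00683). Sdha, the flavoprotein that oxidises succinate, read 4.97, 4.58 and 5.29 when quiescent and 4.28, 4.39 and 4.31 with control siRNA. Its change was -0.62, with an adjusted p of 0.0131. The other kept Sdha probes, all dimmer, changed by -0.53 (adjusted p 0.0509), -0.45 (adjusted p 0.193) and 2.27 (adjusted p 6.3e-04). Of 23 alternative settings, Sdha kept its sign and call in 19 and Sdhc in 20. In all 4 genes the quiescent and control-siRNA arrays did not overlap.

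Complex III fell in 6 of 8 genes (against 26.0% of all genes), and all 8 changes were below 0, with a median of -0.90. Uqcrc2, a core protein of the complex, read 5.50, 5.03 and 5.73 on the quiescent arrays, 3.70, 3.60 and 3.62 with control siRNA, and 3.82, 3.72 and 3.69 with Cav1 siRNA. The lowest quiescent array stood well above the highest cultured one. Its change was -1.78 ± 0.18, a 3.44-fold fall with an adjusted p of 2.5e-05, and -1.72 within slide 1. Uqcrh, the acidic hinge protein next to cytochrome c1, went from 6.95, 6.62 and 7.15 to 5.89, 5.60 and 5.67, a fall of -1.18 ± 0.17 (adjusted p 2.1e-04). Uqcrfs1, the Rieske iron-sulfur protein, went from 5.37, 4.97 and 5.26 to 3.98, 4.29 and 4.27, a fall of -1.02 (adjusted p 3.5e-04). Uqcrc1, Uqcrq and Uqcrb fell as well by their brightest probe, with changes of -0.89, -0.90 and -0.69. The dimmer Uqcrb probes changed by -0.08 (adjusted p 0.867) and 0.73 (adjusted p 0.00573). The probe at -0.08 carries a RefSeq mRNA accession and was above background on all arrays. The remaining small subunits, Uqcr10 at -0.35 and Uqcr11 at -0.24, did not pass the test.

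Complex I was more mixed, with 17 falls, 4 rises and 23 genes not called among 44, and a median of -0.36. Of all genes, 26.0% fell and 42.1% rose. The 7 core subunits of complex I, which together hold the flavin and iron-sulfur clusters between NADH and ubiquinone, all had changes below 0. Of these 7, 5 fell. Ndufv1, the flavin-binding subunit that oxidises NADH, read 5.41, 4.92 and 5.53 when quiescent and 4.18, 4.28 and 4.23 with control siRNA, a fall of -1.06 (adjusted p 5.2e-04). Ndufs1, Ndufs3, Ndufv2 and Ndufs8 changed by -0.67, -0.66, -0.59 and -0.55. Of 23 alternative settings, Ndufs1 kept its call in 8 and Ndufv2 in 15. Ndufs7, of the ubiquinone-binding module, changed by -0.34 and did not pass the test.

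The 30 accessory subunits of complex I surround that core. Among them 8 fell, 2 rose and 20 were not called, with a median of -0.22. The share of falls was near the 26.0% of all genes, and that of rises was below their 42.1%. Ndufab1, the mitochondrial acyl carrier protein, fell by 1.04 on the log2 scale, and Ndufa3, Ndufs6, Ndufb6, Ndufa10, Ndufa6, Ndufb5 and Ndufs5 had changes from -0.89 to -0.64. Ndufa13, also known as GRIM-19, read 6.02, 5.87 and 6.24 when quiescent and 6.55, 6.56 and 6.55 with control siRNA, a rise of 0.51 (adjusted p 0.00854). Ndufa11 rose by 0.50 (adjusted p 0.037). In both, the control-siRNA arrays lay above all quiescent arrays. The 20 genes that were not called ran from -0.46 for Ndufc1 to 0.21 for Ndufa12. Ndufa4, which carries a complex I name but is known as a complex IV component, changed by -0.01, and its sign differed between scalings.

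The widest changes under complex I names were in assembly factors, which help build the complex and leave it. Of 7 such genes, 4 fell and 2 rose, against 26.0% and 42.1% of all genes. Ndufaf4 read 0.95, 0.70 and 1.54 on the quiescent arrays, -2.40, -1.93 and -1.87 with control siRNA, and -1.97, -1.82 and -1.65 with Cav1 siRNA. The groups were far apart, at -3.13 ± 0.24, an 8.74-fold fall with an adjusted p of 3.4e-06. Ndufaf6 went from 2.11, 1.36 and 2.50 to -0.51, -0.47 and -0.39, a fall of -2.44 ± 0.25 (adjusted p 2.6e-05), and the changes of its 3 kept probes ran from -2.78 to -2.44, the probe at -2.78 being above background on 1 of 3 control-siRNA arrays. Ndufaf3, which works with Ndufaf4, changed by -0.76 and Ndufaf1 by -0.67, the latter with overlapping arrays. Ndufaf7, a methyltransferase, read 1.71, 1.34 and 1.85 when quiescent and 2.50, 2.33 and 2.28 with control siRNA, a rise of 0.74 ± 0.16 (adjusted p 0.00293). Ndufaf5, which hydroxylates Ndufs7, rose by 0.39 (adjusted p 0.0434), and Ndufaf2 at 0.35 did not pass.

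**Figure D2:**
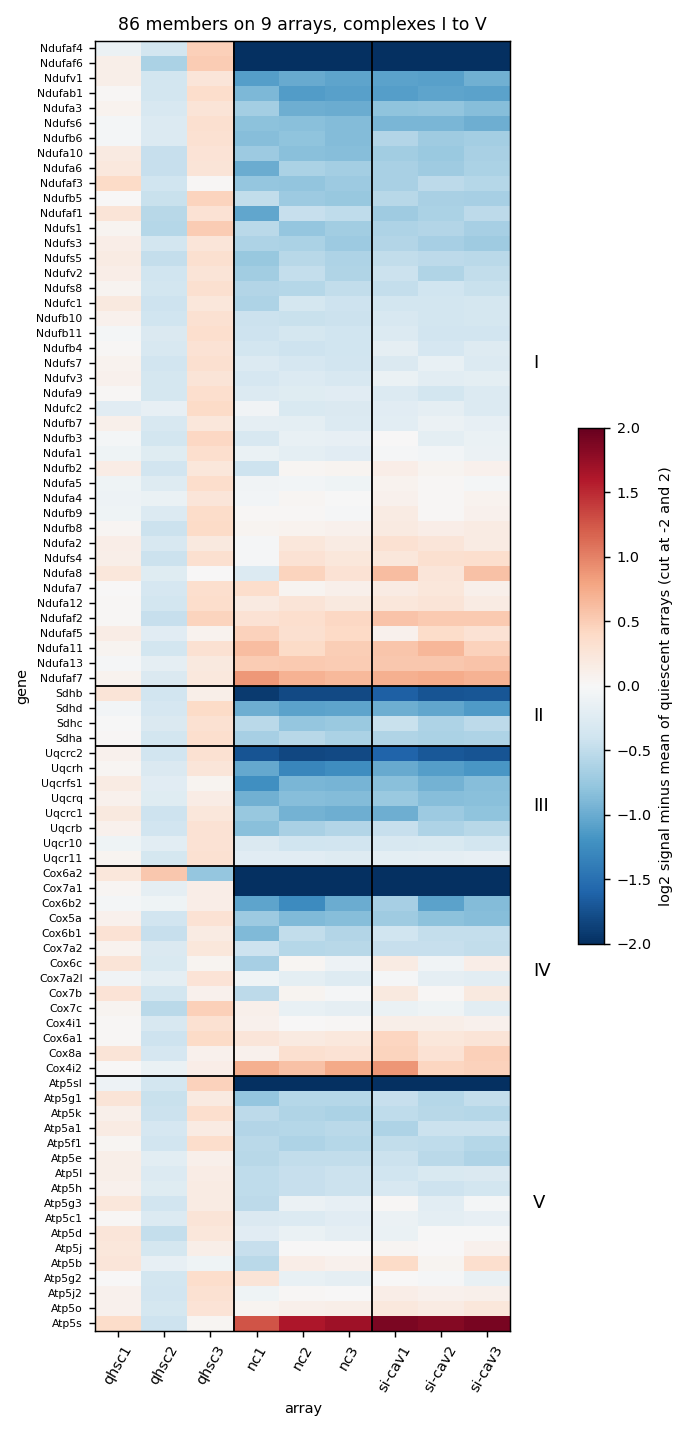
Log2 signal of 86 of the genes on the 9 arrays, each minus the mean of its 3 quiescent arrays and with colours cut at -2 and 2, in complexes I to V from top to bottom. Blue is below the quiescent mean. The cultured arrays resemble each other, complexes II and III are blue throughout, and quiescent array 2 is paler or bluer than the other quiescent arrays in nearly every row.

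The quiescent arrays differed among themselves in a shared way. The median log2 signal of the 87 genes was 5.41, 5.03 and 5.64 on quiescent arrays 1 to 3, 4.83, 4.92 and 4.85 with control siRNA, and 4.98, 4.91 and 4.90 with Cav1 siRNA. Quiescent array 2 was the lowest of its group in 85 of 87 genes and array 3 the highest in 69. These orders were not counted over all genes. A shift of a whole array was thus not set apart from one of these genes. The median SD of a gene was 0.34 among quiescent arrays, 0.07 among control-siRNA arrays and 0.06 among Cav1-siRNA arrays. Array 2 had 53.6% of its spots well above background, against 60.2% and 59.9% on the other quiescent arrays. It also had the lowest summed hepatocyte signal of the 3, at 1302 against 1640 and 1612, and the highest sum of quiescent stellate markers, at 75.4 against 41.7 and 27.5. Its sums of activated stellate (25.9), sinusoidal endothelial (551) and bile duct cell, or cholangiocyte, markers (6.03) were the highest of the 3 as well. That of Kupffer cell markers (280) was the lowest. Whether these move the respiratory chain genes was not tested. Without quiescent array 2, 55 genes fell and 4 rose (against 28.7% and 41.8% of all genes), and without quiescent array 3, 36 fell and 8 rose (against 25.9% and 43.0%).

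In complex IV, of 14 measured genes, 6 fell and 1 rose (against 26.0% and 42.1% of all genes), with a median of -0.21. Cox6a2, the heart-and-muscle form of its subunit, read 2.19, 2.51 and 1.20 on the quiescent arrays, -4.20, -3.86 and -3.73 with control siRNA, and -5.14, -4.08 and -4.40 with Cav1 siRNA. It showed the deepest fall of the 87 genes, -5.89 ± 0.37 or 59.4-fold (adjusted p 9.0e-07), and was still above background on all cultured arrays. Its broadly expressed counterpart Cox6a1 read 7.45, 7.02 and 7.82 when quiescent and 7.67, 7.61 and 7.64 with control siRNA. These overlapped, and the change of 0.21 (95% interval -0.24 to 0.66) did not pass the test.

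Cox7a1, again a heart-and-muscle form, went from 0.40, 0.17 and 0.49 to -2.07, -2.15 and -2.39 with control siRNA and -2.46, -2.42 and -2.41 with Cav1 siRNA. The fall was -2.55 ± 0.15, or 5.87-fold, with an adjusted p of 4.9e-07. Cox7a2, its broadly expressed counterpart, read 6.18, 5.82 and 6.35 and then 5.71, 5.55 and 5.56, a shallower fall of -0.51 (adjusted p 0.0184). Cox7a2l, a related protein that takes part in supercomplexes, changed by -0.19 and was not called. Cox6b2, known as a testis form, changed by -1.10 (adjusted p 2.1e-04), and Cox6b1, the common form, by -0.66 (adjusted p 0.0206).

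In the Cox4 pair, the tissue-restricted form was the one that rose. Cox4i2, a form known from lung and from low oxygen, read -2.64, -2.78 and -2.51 when quiescent and -1.93, -2.06 and -1.89 with control siRNA. It was the sole complex IV gene that rose, by 0.68 ± 0.16 (adjusted p 0.00483). Cox4i1, the common form, changed by 0.04 (95% interval -0.34 to 0.43) and its sign differed between scalings. Cox5a fell by 0.82 on the log2 scale. Cox8a at 0.22, Cox6c at -0.24, Cox7b at -0.17 and Cox7c at -0.08 were not called, and the sign of Cox8a differed between scalings. That of Cox7b turned with normexp background correction and on leaving out an array. Cox8b, Cox8c and Cox7b2, known from muscle or testis, were not above background on all arrays of any group. The probes of these pairs shared runs of at most 6 of 60 bases, so the 2 forms of a pair were read from different sequences.

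**Figure D3:**
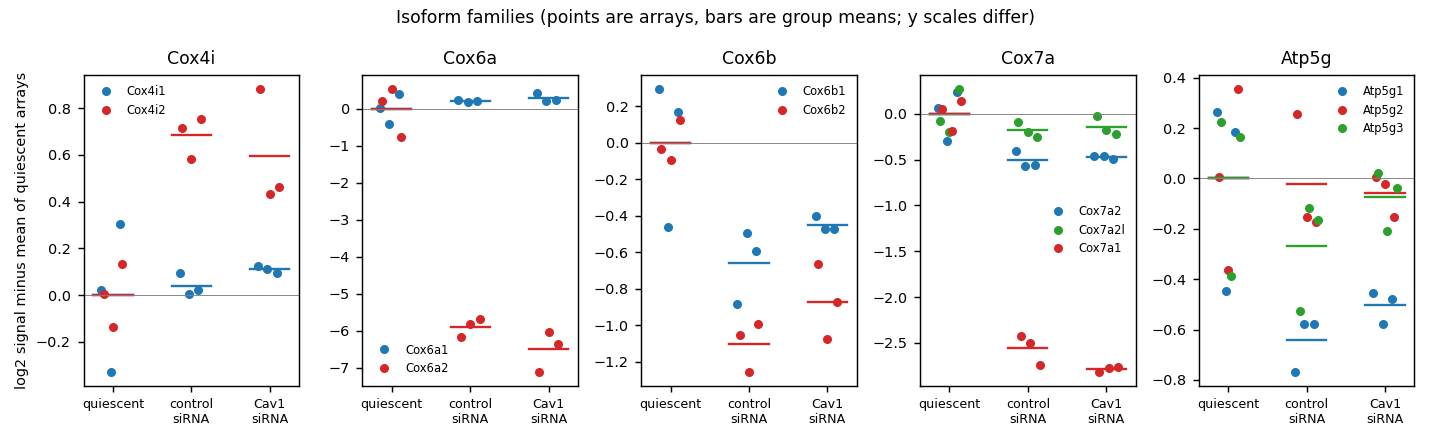
Log2 signal of the isoforms of 5 subunits, each minus the mean of its own 3 quiescent arrays (y axis, log2 units, with a scale of its own in each panel). Points are arrays, bars are group means, and the groups are quiescent, control siRNA and Cav1 siRNA. Cox6a2 and Cox7a1 lie far below their quiescent levels in both cultured groups, while Cox6a1 and Cox4i1 stay near 0.

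In complex V, 8 of 17 genes fell and 1 rose (against 26.0% and 42.1% of all genes), with a median of -0.27. The F1 head, which makes ATP, had 2 falls in 5 genes: Atp5a1 at -0.57 and Atp5e at -0.51. Its catalytic subunit Atp5b read 6.69, 6.29 and 6.37 when quiescent and 5.91, 6.59 and 6.54 with control siRNA, which overlapped, and the change of -0.10 was not called. Of the 7 stalk and membrane subunits, Atp5k, Atp5f1, Atp5l and Atp5h fell by their brightest probe, with changes from -0.59 to -0.46. Dimmer probes of Atp5h at 0.01 and -0.29, Atp5l at -0.18 and Atp5f1 at -0.28 were not called. Dimmer probes of Atp5f1 at -0.80 and Atp5k at -0.47 fell. Atp5j, Atp5j2 and Atp5o were not called by their brightest probe. A dimmer Atp5j probe changed by -2.91 (adjusted p 7.3e-06). One of Atp5j2, above background on 2 of 3 quiescent arrays, changed by 1.67 (adjusted p 6.5e-05). The 3 c-ring genes Atp5g1, Atp5g2 and Atp5g3 encode the same mature protein with different import sequences. Atp5g1 read 5.94, 5.23 and 5.86 when quiescent and 4.91, 5.10 and 5.10 with control siRNA, a fall of -0.64 ± 0.20 (adjusted p 0.0169). Atp5g3 at -0.27 and Atp5g2 at -0.03 were not called, and the sign of Atp5g2 differed between scalings. A dimmer Atp5g3 probe, above background on all arrays, changed by 1.79 (adjusted p 5.7e-05).

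The widest changes under ATP synthase names were in the 2 genes that are not subunits. Atp5sl, or Dmac2, which takes part in assembly of the membrane arm of complex I, read 3.19, 2.93 and 3.76 when quiescent and 1.07, 0.79 and 0.61 with control siRNA. Both of its probes fell, the brighter with a change of -2.47 ± 0.22 (adjusted p 9.9e-06). Atp5s, or Dmac2l, known as coupling factor B, went from -2.62, -3.39 and -2.94 to -1.73, -1.37 and -1.29, the largest rise among the 87 genes at 1.52 ± 0.21 (adjusted p 1.8e-04). Whether the complexes differed from each other in their change was not tested.

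Some subunits had a second, dimmer probe that read the other way, in most cases near background. Of 35 genes with several kept probes, 7 had probes that were called in opposite directions: Ndufv2, Sdha, Uqcrfs1, Ndufs1, Ndufs3, Ndufa10 and Uqcrb. The probe standing for a gene here is its brightest one. In each of the 7 genes the rising probe was dimmer and carried no RefSeq mRNA accession but that of another cDNA or transcript record. Among 22 genes with both kinds of probe this was 31.8%, against 3.79% of 3804 such genes on the array. The part of the filter in these rises is given below. The first 30 bases of the 60-base probes are shown for the 3 genes with the widest disagreement, with mm9 coordinates from the file headers, because the opposite readings come from these different stretches of the same named gene.
Ndufv2, RefSeq-mRNA probe, chr17:66428794-66428853, minus strand: gtgtgcaagcaggcctttaacttgtattca
Ndufv2, other probe, chr17:66442062-66442121, minus strand: gtggttcacagaattaagaaatggtaggat
Sdha, RefSeq-mRNA probe, chr13:74460310-74460369, minus strand: ccagactttgtctctttattcttgtgcagt
Sdha, other probe, chr13:74486662-74486720, minus strand: taagtcagccacctataattgtagcagaat
Uqcrfs1, RefSeq-mRNA probe, chr13:30632363-30632422, minus strand: gcataataaaaccactgttgaacatcatta
Uqcrfs1, other probe, chr13:30639055-30639114, plus strand: acttatatgtgtttgcatttgtgtcctcta

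The Ndufv2 probe of the other record read -5.92, -6.04 and -7.69 when quiescent and -3.97, -3.68 and -3.87 with control siRNA, where the RefSeq mRNA probe changed by -0.59. It was not well above background on any quiescent array, so its level there is a bound, and it was at least 2.18-fold higher with control siRNA. The same held for the other probes of Uqcrfs1 (at least 1.39-fold) and Ndufs3 (at least 1.41-fold). The Uqcrfs1 probe that rose lies on the opposite strand to the one that fell. The other Sdha probe was above background on 2 of 3 quiescent arrays and changed by 2.27, against -0.62 for the RefSeq mRNA probe.

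Across the 22 genes with both kinds of probe, the RefSeq mRNA probes fell in 17 of 28 and rose in 1. Over all genes with both kinds, such probes fell in 23.8% and rose in 45.8%. The other probes of the 22 genes rose in 12 of 25 (48.0%, against 48.9% over all genes with both kinds). They fell in 6 (24.0%, against 18.5%). Their rises were thus at the level of the array as a whole. All 12 rising probes were above background on the 3 control-siRNA arrays, but 3 were so on no quiescent array, 6 on 1 or 2 and 3 on all. The 9 dim ones passed the filter through the cultured groups, so their rise was partly set by the filter and supports nothing here. Over probes above background on all quiescent and control-siRNA arrays, 14 genes had both kinds. Their other probes rose in 3 of 14 (21.4%, against 42.0% of such probes over all genes) and fell in 5 (35.7%, against 23.4%). Among the 14 genes, Ndufa10 alone had a fall of one probe with a rise of the other. This was 7.14% of them, against 3.12% of 2214 such genes on the array. With RefSeq mRNA probes alone, 44 genes fell and 6 rose, against 31.3% and 42.3% of all genes. With the mean of all kept probes, 34 fell and 12 rose, against 26.0% and 42.8%, and Sdha, Uqcrfs1, Ndufv2, Ndufs1, Ndufs3 and Atp5g3 had changes above 0.

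**Figure D4:**
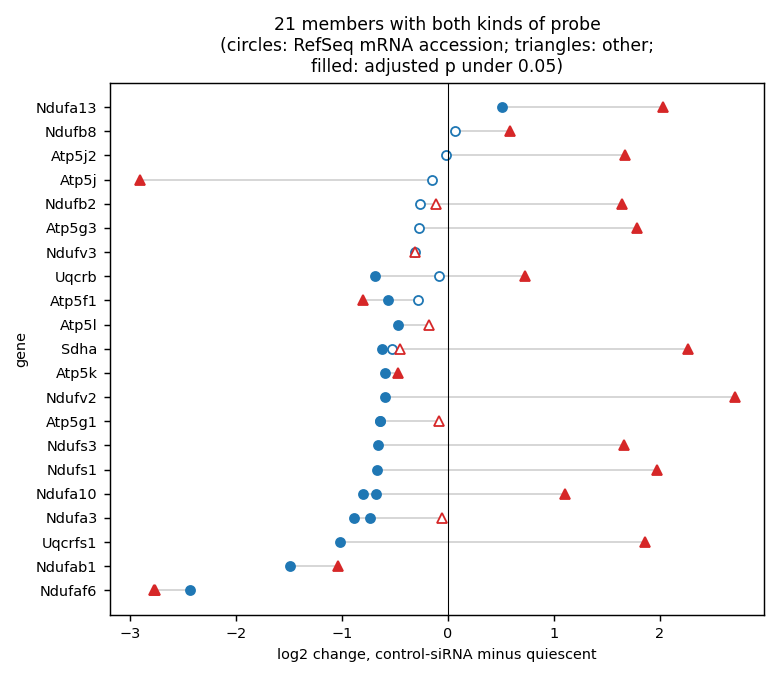
Log2 change from quiescent to control-siRNA arrays (x axis, log2 units) of every kept probe of 21 genes with both kinds of probe. Circles are probes with a RefSeq mRNA accession, triangles are other probes, filled symbols had an adjusted p under 0.05, and grey lines join the probes of a gene. Circles lie mostly below 0. Of the 24 triangles 12 rose, and 3 of those 12 were above background on all quiescent arrays. Over all genes with both kinds of probe, 48.9% of the other probes rose.

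The partners of these genes, from lists chosen by function, were read in the same comparison, in which 26.0% of all genes fell and 42.1% rose. Of the 11 measured genes of the mitochondrial genome, whose products sit inside complexes I, III, IV and V, 5 fell and none rose, and all 11 changes were below 0 with a median of -0.53. ND4L, a complex I membrane subunit, went from 7.36, 6.98 and 6.50 to 5.68, 5.80 and 5.63, a fall of -1.24 (adjusted p 5.7e-04). ND1 at -0.97, ND5 at -0.93, CYTB at -0.56 and ND2 at -0.54 also fell. The complex IV genes COX1 at -0.28 and COX2 at -0.36 were not called.

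Among electron carriers, 10 of 15 genes for cytochrome c and ubiquinone synthesis fell and 2 rose, with a median of -0.78. Of all genes, 26.0% fell and 42.1% rose. Coq8a, an atypical kinase of ubiquinone synthesis, changed by -4.91, Coq10b, a ubiquinone-binding protein, by -2.12, and Cycs, cytochrome c itself, by -1.10. Pdss1 and Coq6, both enzymes of ubiquinone synthesis, rose by 1.21 and 0.75. In the citric acid cycle and pyruvate dehydrogenase, 9 of 18 fell and 1 rose, against the same shares of all genes. Suclg2 and Suclg1, subunits of succinyl-CoA ligase, changed by -1.96 and -1.50, while Cs, citrate synthase, rose from 4.91, 4.52 and 4.83 to 5.74, 5.76 and 5.78, by 1.01 (adjusted p 1.9e-04).

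The other assembly factors went both ways, 13 of 39 lower and 8 higher, against 26.0% and 42.1% of all genes. Ecsit, of the complex I assembly machinery, changed by -2.12 and Coa7, a complex IV factor, by -1.71, while Ttc19, a complex III factor, rose by 1.73, and Sdhaf2 and Uqcc2, for complexes II and III, each by 0.85. Carriers, import and membrane proteins had 4 falls and 6 rises among 21, against the same shares of all genes. The adenine nucleotide carriers changed in opposite directions: Slc25a4, the heart-and-muscle form, rose from 3.78, 4.15 and 3.58 to 6.75, 6.85 and 6.93, by 3.01 (adjusted p 3.7e-07), and Slc25a5 fell by 1.25 (adjusted p 3.5e-04). Ucp2, an uncoupling protein homologue known from macrophages, fell by 6.62 on the log2 scale, and Timm17a, of the inner membrane import channel, rose by 1.11.

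Regulators of mitochondrial gene expression had 7 falls and 3 rises among 17, against 26.0% and 42.1% of all genes. Ppargc1a, the coactivator PGC-1alpha, read -0.44, -0.94 and -0.27 when quiescent and -3.50, -3.60 and -3.58 with control siRNA, a fall of -3.01 ± 0.19 (adjusted p 1.1e-06). Ppargc1b, its relative, changed by -0.88, and Esrrg, a nuclear receptor, by -5.10, with 1 control-siRNA array above background. Pprc1, another coactivator of the family, rose by 1.43, and Polrmt, the mitochondrial RNA polymerase, by 0.53. Nrf1 at 0.05, Gabpa at 0.18, Esrra at -0.27 and Tfam at -0.09 were not called.

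NRF1, GABPA, the estrogen-related receptors and YY1 are transcription factors known to act at promoters of respiratory chain genes. Of the 90 genes, 75 matched an entry in the RefSeq promoter windows (GRCm38.p6, 250 bases before to 50 after the start), with 81 windows. The NRF1 letters, GCGCA and GCGC with any 1 base between them and searched on both strands like the others, were in 20 of 81 windows (24.7%, against 4.60% of all 32851 windows). The ETS letters CCGGAAG, which GABPA binds, were in 17 (21.0%, against 8.86%), the YY1 letters AAGATGGCG in 9 (11.1%, against 1.40%), and the estrogen-related receptor letters AAGGTCA in 8 (9.88%, against 4.72%). The median change of genes with the NRF1 letters was -0.39 and of those without -0.37. For the ETS letters the medians were -0.55 and -0.29, and for the estrogen-related receptor letters -0.49 and -0.34. The YY1 letters went the other way, at -0.29 with and -0.39 without. None of these pairs was tested. The windows of Sdhb and Ndufaf4, which fell furthest among their complexes' genes, and of isoforms that fell deeply (Cox7a1), mildly (Cox7a2) or were not called (Cox6a1), are given 5′ to 3′ with matches to these 4 sets of letters in capitals.
Sdhb promoter, chr4:140961021-140961320, plus strand: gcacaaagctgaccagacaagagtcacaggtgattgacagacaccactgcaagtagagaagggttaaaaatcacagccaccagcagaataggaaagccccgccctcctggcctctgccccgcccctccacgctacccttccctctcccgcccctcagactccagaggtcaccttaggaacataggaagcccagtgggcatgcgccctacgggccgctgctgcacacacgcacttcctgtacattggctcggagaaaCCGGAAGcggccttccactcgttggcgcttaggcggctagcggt
Ndufaf4 promoter, chr4:24897833-24898132, plus strand: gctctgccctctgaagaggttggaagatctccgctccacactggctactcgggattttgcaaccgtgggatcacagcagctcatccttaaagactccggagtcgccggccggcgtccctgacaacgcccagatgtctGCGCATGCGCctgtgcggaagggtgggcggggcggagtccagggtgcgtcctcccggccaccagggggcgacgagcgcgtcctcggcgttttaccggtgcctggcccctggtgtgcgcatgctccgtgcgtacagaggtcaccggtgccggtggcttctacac
Cox7a1 promoter, chr7:30183921-30184220, plus strand: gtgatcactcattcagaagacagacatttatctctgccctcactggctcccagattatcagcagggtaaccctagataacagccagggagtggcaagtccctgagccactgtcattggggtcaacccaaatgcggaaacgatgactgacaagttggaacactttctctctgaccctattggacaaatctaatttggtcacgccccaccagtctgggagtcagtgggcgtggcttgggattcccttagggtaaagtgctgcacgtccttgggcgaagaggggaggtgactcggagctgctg
Cox7a2 promoter, chr9:79759804-79760103, minus strand: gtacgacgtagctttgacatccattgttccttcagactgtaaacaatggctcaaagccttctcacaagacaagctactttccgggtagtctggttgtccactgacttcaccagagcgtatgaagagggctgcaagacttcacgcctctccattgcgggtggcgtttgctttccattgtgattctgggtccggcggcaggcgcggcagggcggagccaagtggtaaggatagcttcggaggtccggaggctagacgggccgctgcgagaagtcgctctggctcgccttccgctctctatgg
Cox6a1 promoter, chr5:115348909-115349208, minus strand: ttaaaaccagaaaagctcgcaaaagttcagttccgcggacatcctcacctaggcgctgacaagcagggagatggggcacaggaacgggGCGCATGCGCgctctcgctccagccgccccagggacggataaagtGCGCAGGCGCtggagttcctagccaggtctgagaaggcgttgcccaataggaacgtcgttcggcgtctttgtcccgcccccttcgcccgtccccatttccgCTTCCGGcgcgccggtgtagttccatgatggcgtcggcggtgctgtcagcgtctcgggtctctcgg

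Sdhb holds 1 ETS match just after its start, Ndufaf4 1 NRF1 match, and Cox6a1 NRF1 matches and an ETS match on the reverse strand. The Cox7a1 and Cox7a2 windows hold none of these letters.

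With Cav1 siRNA, compared with control siRNA, none of the 87 genes passed the test, and neither did any other gene (0% of 23965 called, with a lowest adjusted p of 0.097). None of the 87 had an unadjusted p under 0.05 in limma, against 4.96% of all genes. The fit shared its variance for a gene over all arrays, including the quiescent ones, which are outside this comparison. The median SD of a gene was 0.34 among quiescent arrays, 0.07 with control siRNA and 0.06 with Cav1 siRNA. The p-values and intervals here are thus set largely by the quiescent spread, which may hide smaller shifts between the siRNA groups. A fit of the siRNA groups alone also called none of the 87 after adjustment. The 95% interval of the change lay within 2-fold for 86 of the 87, the exception being Cox6a2 at -0.61 (interval -1.45 to 0.23). Sdhb changed by 0.15 (interval -0.25 to 0.55) and Uqcrc2 by 0.10 (interval -0.31 to 0.52).

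Small differences leaned to one side. The change was above 0 in 73 of 87 genes with a median of 0.09, while 43.2% of all genes lay above 0 and their median was -0.04. The Cav1-siRNA arrays lay wholly above the control-siRNA arrays in 25 (28.7%, against 8.61% of all genes) and wholly below in 2, Ndufs6 and Cox7a1 (2.30%, against 14.0%). The lean depended on the scaling: after quantile normalization 39 of 87 were above 0, the median was -0.01, and 11 lay wholly above (against 9.59% of all genes). With median scaling, 84 were above 0 and 45 lay wholly above (against 16.6%). Within slide 2, with 2 control-siRNA arrays, the median was 0.08.

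The lowest p-values were those of Atp5b, Atp5s, Cox6a2, Cox7a1 and Cox6b2, none of which passed. Atp5b read 5.91, 6.59 and 6.54 with control siRNA and 6.84, 6.50 and 6.79 with Cav1 siRNA, a change of 0.36 (unadjusted p 0.126, adjusted p 1 in limma). Control-siRNA array 1, the one on slide 1, was the low one, and it was also the lowest of its group in Cox6c (4.83 against 5.54 and 5.40) and Cox7b (4.19 against 4.76 and 4.68). Over the 87 genes it was the lowest of its group in 44 and the highest in 34. Atp5s changed by 0.35 and Cox6b2 by 0.23, and Cox7a1 by -0.23.

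**Figure D5:**
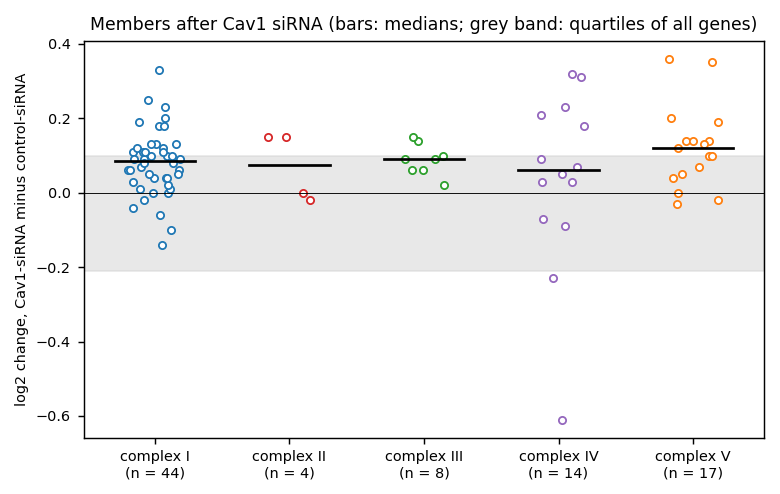
Log2 change from control-siRNA to Cav1-siRNA arrays (y axis, log2 units) of the 87 genes, by complex. Points are genes, with horizontal jitter, black bars are medians, and the grey band spans the quartiles of all genes, -0.21 to 0.10. No point passed the test, and 73 lie above 0.

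Against the quiescent cells, which both comparisons share, the Cav1-siRNA arrays showed 37 falls and 6 rises among the 87 genes (27.2% and 40.4% of all genes), with a median of -0.33. The median of all genes was 0.27. Without the background filter the median was -0.34 for the respiratory chain genes and -0.34 for all genes. Sdhb changed by -1.69, beside -1.84 for control siRNA, Uqcrc2 by -1.68 beside -1.78, Ndufaf4 by -2.88 beside -3.13, Cox6a2 by -6.50 beside -5.89 and Atp5s by 1.87 beside 1.52.

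Ndufa4l2, a relative of Ndufa4 known to respond to low oxygen and left out by the name rule, read -1.99, -1.99 and -2.31 when quiescent, -5.27, -5.11 and -5.15 with control siRNA and -6.65, -6.27 and -6.31 with Cav1 siRNA. It fell by 3.08 on the log2 scale with activation (adjusted p 2.5e-07). On the Cav1-siRNA arrays it was not well above background, so that it was at least 1.78-fold lower there than with control siRNA (adjusted p 0.134). This bound sets the mean of the brighter group against the higher of the lowest signal above background and the probe's own on each array of the dimmer group.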

How the data were processed

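RNA from 9 samples, 3 per group, was read on single-colour Agilent arrays, and per the submitters' processing notes the software that read the scans was Agilent Feature Extraction 10.7.1.1. The deposited intensity of each spot was background-subtracted and detrended by the authors' software, without scaling between arrays, per the file headers. Other deposited columns gave mean and background intensity and flags for background, saturation and outlier spots. No spot was saturated.

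Log2 processed intensity was taken relative to the array's 75th percentile over non-control spots, and replicate spots were averaged after outliers were dropped. Probes stayed in if a share of 0.5 or more of their spots passed the background flag on every array of at least 1 group. The brightest of a gene's kept probes stood for it, giving 36817 probes and 23965 genes. Group means over the 9 arrays were fitted and compared with limma (version 3.58.1, R version 4.3.3, lmFit then eBayes), with two-sided tests and Benjamini-Hochberg adjustment over all genes. The number of arrays limits the precision. The fit was tested on simulated data. Figures were drawn with matplotlib.

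Genes were named with values by a rule: the 2 deepest falls and the largest rise called in each complex, Sdhb, Uqcrc2, all Sdh genes, isoform families, genes whose probes disagreed, the 5 lowest p-values after Cav1 siRNA, and of each partner list the 2 deepest falls and largest rises. The remaining genes are given to account for every one, and a few partners were named after their values were seen. The genes and lists were chosen with earlier results of these data known. Gene names, synonyms and promoters came from RefSeq tables (GRCm38.p6), by symbol or accession, which matched 112 of 140 probes by accession. On mm9, 139 of the 140 lay on the chromosome RefSeq gives. Alternatives covered background correction, scaling, the filter, the choice of probe, slide, array weights, the replicate number and leaving out each array. The values of 1 gene are not reported here, and the counts include it.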

Additional observations from a re-analysis of the deposited data

How the results depend on the processing

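With activation, the count of lower genes (41) went to 62 with normexp and quantile normalization, 19 with median scaling, 22 with slide as a term and 7 within slide 1, and the count of higher genes (6) to 12 with the mean of kept probes, 19 over every kept probe, 3 with slide and 0 within slide 1. Their median (-0.44) went to -0.67 and -0.68 with the quantile normalizations and -0.25 with the mean of kept probes. Leaving out each array gave 33 to 55 lower, 4 to 8 higher and medians from -0.58 to -0.29. For Cav1 siRNA against quiescent, lower genes (37) went to 61 and 56 with the quantile normalizations (against 27.2% and 26.8% of all genes), 14 with median scaling (21.2%) and 11 with slide (17.9%), and ran from 23 to 52 without each array, at 24 without quiescent array 1, 24 without quiescent array 3, 23 without Cav1-siRNA array 2 and 24 without Cav1-siRNA array 3. Higher genes (6) went to 11 with normexp, 13 with the mean of kept probes, 20 over every kept probe and 2 with slide. The cause of these moves was not tested. The within-slide and RefSeq mRNA settings and the count over probes above background on all arrays of both groups were chosen after seeing the data.

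Signs turned in genes near 0: Cox7b (0.04 with normexp, -0.35 to 0.01 without each array), Cox4i1 (-0.14 and -0.25 with the quantile normalizations, -0.02 with array weights, -0.12 to 0.20 without each array), Cox8a (-0.09 and -0.07 with the quantile normalizations), Ndufa4 (0.08 with normexp, 0.14 with median scaling, 0.03 with array weights, 0.12 without quiescent array 3, 0.02 without control-siRNA array 1), and Atp5g2 (0.06 with normexp, 0.12 with median scaling, 0.25 with slide and within slide 1, -0.21 to 0.15 without each array). The mean of kept probes turned Sdha (0.17), Atp5g3 (0.76), Ndufv2 (1.06), Uqcrfs1 (0.42), Ndufs1 (0.66) and Ndufs3 (0.50). Sdhb, Uqcrc2, Ndufaf4, Ndufaf6, Cox6a2, Cox7a1 and Atp5sl kept their direction and call in all 23 alternatives run on each.

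Samples share replicate numbers across groups, but correlations of same-numbered arrays ran from -0.11 to 0.17 and did not pair them. With the replicate number as a block, 40 genes fell and 4 rose with activation, and 32 fell and 5 rose with Cav1 siRNA against quiescent.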

Other observations

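Among the quiescent arrays, Cox6a2 and Ndufc2 were the 2 genes of 87 that were not lowest on array 2. Cox6a2 was highest there, at 2.51, then 2.19 on array 1 and 1.20 on array 3. The summed signal of quiescent stellate markers stood in the same order, at 75.4, 41.7 and 27.5. So did those of activated stellate markers (25.9, 14.9 and 10.0) and cholangiocyte markers (6.03, 2.84 and 2.06). The sum of hepatocyte markers was lowest on array 2, at 1302 against 1640 and 1612. Cox7a1 had the order of most other respiratory chain genes, at 0.17 on array 2, 0.40 on array 1 and 0.49 on array 3. With 3 arrays this order was not tested.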
